A study of Mus musculus with 6 samples.

Results

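The miR-34 and miR-449 microRNAs were described in small RNA libraries of J1 cells, a mouse embryonic stem cell line. The members were fixed by name as the 6 hairpins Mir34a, Mir34b, Mir34c, Mir449a, Mir449b and Mir449c, out of 1174 hairpins with a Mir symbol that were searched. Sequenced reads are called tags here, and those of 18 to 26 bases were assigned to the hairpins by exact match on the sense strand. The files list each distinct sequence once with its count, and every number of tags below is a sum of those counts. Of the 12 arms of these hairpins, 10 had tags, against 1264 arms with tags in the whole series, and the 10 arms held 61234 tags over the 6 libraries. The study kept the cells on gelatin in a serum replacement medium with LIF at 1000 U/ml and exposed them to an agent for 24 h. The groups were retinoic acid (RA, 1 µM), BIO (1 µM), CHIR99021 (3 µM), vitamin C (VC, 50 µg/ml), and the vehicles DMSO (1 µL) and ddH2O (1 µL). The design sets RA, BIO and CHIR99021 against DMSO, and VC against ddH2O. RA is a vitamin A derivative that drives differentiation. BIO and CHIR99021 block Gsk3, a kinase that restrains Wnt signalling. Vitamin C assists iron-dependent dioxygenases such as the Tet enzymes.

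Each group held 1 library, so no difference had a replicate check and no p-value is given. All 6 groups carried the same cell line, medium and LIF, and no genotype or knockout was compared. Intervals are 95% exact intervals that cover counting error only, since the reads carry no molecular identifiers and copies made by PCR are not independent molecules. The RA, BIO and CHIR99021 comparisons share the DMSO library, so an unusual DMSO library would move all of them together.

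In the textbook account the transcription factor p53 activates Mir34a and the joint Mir34b and Mir34c transcript after DNA damage, and the mature miR-34 lowers mRNAs of the cell cycle and survival machinery, among them Cdk6, Met and Bcl2. The miR-449 hairpins carry the same seed, the stretch at the 5′ end that pairs with target mRNAs, and are best known for high levels in multiciliated cells and in testis. miR-34a is known as a brake on the reprogramming of somatic cells and, in mouse embryonic stem cells, on the range of fates a cell can take.

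The mature sequences are shown to make the shared seed visible and to separate the members that share it from those that do not. They are from RefSeq (GRCm38.p6), in which 9 of the 12 arms had an entry, and the capitals mark the seed, bases 2 to 8. The 4 arms below with an entry on the 5p side have the seed GGCAGUG, and no other entry among the 1679 mature mouse sequences of the table has it.
miR-34a-5p: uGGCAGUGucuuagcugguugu
miR-34b-5p: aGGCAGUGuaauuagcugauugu
miR-449a-5p: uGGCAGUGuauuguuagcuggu
miR-449c-5p: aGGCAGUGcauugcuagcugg
Outside the seed the members diverge. From the 5′ end, miR-449a-5p and miR-449c-5p are alike at 18 of 21 bases, miR-34a-5p and miR-449a-5p at 15 of 22, and miR-34a-5p and miR-34b-5p at 11 of 22. The 3p arms, which come from the other strand of each hairpin, have seeds of their own, and only miR-34b-3p and miR-34c-3p share one, AUCACUA.
miR-34a-3p: aAUCAGCAaguauacugcccu
miR-34b-3p: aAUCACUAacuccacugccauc
miR-34c-3p: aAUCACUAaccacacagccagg
miR-449a-3p: cAGCUAACaugcgacugcucuc
miR-449c-3p: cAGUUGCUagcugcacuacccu
miR-34c-5p and both arms of Mir449b complete the 12. Of all tags counted on the 5p arms, 99.6% in DMSO to 99.9% in RA had the family seed at bases 2 to 8.

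The hairpins lie at 3 places in GRCm38. Mir34a is at chr4:150068454-150068555 on the plus strand and lies in no other annotated gene. Mir34b (chr9:51103562-51103645) and Mir34c (chr9:51103034-51103110) are 451 bases apart on the minus strand, in an intron of Btg4, which is transcribed from the plus strand. Mir449c (chr13:113035983-113036091), Mir449b (chr13:113037419-113037498) and Mir449a (chr13:113037534-113037624) all lie on the plus strand in an intron of Cdc20b, on the same strand as that gene. They are separated by 1327 and 35 bases in that order. The host genes' mRNAs were not measured here.

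The libraries held 18870345 to 23758363 tags in all, of every length in the files, up to 44 bases. MicroRNA tags made up 3.76% of the RA library, 9.43% of BIO, 6.01% of CHIR99021, 9.17% of VC, 11.4% of DMSO and 8.59% of ddH2O. Levels are given as counts per 1000000 microRNA tags (CPM), and 3 counts, taken as the limit that a count of 0 allows, came to 4.11 CPM in RA and to 1.39 CPM in DMSO. The labelled cell type was checked against the stem cell cluster miR-290 to miR-295, whose 12 arms were all detected and summed to 166465 CPM in RA, against 289283 CPM in DMSO. The VC library had a sum of 277924 CPM, against 269800 CPM in ddH2O. Mesenchymal marker microRNAs, 7 arms of which at most 1 was at 0 in a library, summed to 1473 to 2218 CPM, with 2218 CPM in RA and 1825 CPM in DMSO. Neuronal markers, 4 arms with none at 0, summed to 1255 to 5808 CPM, with 1255 CPM in RA and 2438 CPM in DMSO. Most of this sum was miR-124a-3p, which was lower in RA than in DMSO. The neuronal arm miR-9-5p went the other way, with 233 CPM in RA and 152 CPM in DMSO. The part of these marker differences in the results below was not tested. In RNA from whole cultures, fewer cells of a type and less RNA per cell cannot be told apart.

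One arm carried most of the family. miR-34c-5p, the 5p product of Mir34c, had 14120 CPM in RA, 3852 in BIO, 3824 in CHIR99021, 6098 in VC, 4132 in DMSO and 6688 in ddH2O. It was highest in RA, next in ddH2O and then in VC, and these 3 intervals did not overlap each other or those of the other 3 libraries. DMSO lay above BIO and CHIR99021, whose intervals overlapped (3769 to 3937 CPM in BIO, 3724 to 3927 CPM in CHIR99021). By level it ranked 16th among 853 arms with tags in RA, against 43rd among 988 in DMSO. It made up 95.1% of the family's tags in RA, 90.7% in DMSO, and between 89.5% and 91.2% in the other 4 libraries. All members together were 1.48% of microRNA tags in RA and 0.455% in DMSO.

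The other arms of the Mir34b and Mir34c pair were far less abundant and were also highest in RA. miR-34b-5p, which shares the family seed, had 225 CPM in RA, 65.7 in BIO, 74.9 in CHIR99021, 113 in VC, 67.3 in DMSO and 125 in ddH2O. The interval in RA lay above that of every other library, VC and ddH2O overlapped, and BIO, CHIR99021 and DMSO overlapped. miR-34b-3p, with the other seed, had 45.3 CPM in RA, 11.9 in BIO, 11.2 in CHIR99021, 40.2 in VC, 14.4 in DMSO and 21.7 in ddH2O. Here RA and VC overlapped, and both lay above DMSO. miR-34c-3p, the partner strand of the leading arm, had 46.6 CPM in RA, 7.62 in BIO, 4.90 in CHIR99021, 25.4 in VC, 10.7 in DMSO and 17.2 in ddH2O, from 7 tags in CHIR99021 to 48 in VC. Its interval in RA overlapped that of VC and lay above that of DMSO.

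Per microRNA tag, miR-34a, the member most often tied to p53, varied less. miR-34a-5p had 239 CPM in RA, 232 in BIO, 253 in CHIR99021, 268 in VC, 196 in DMSO and 269 in ddH2O. The highest library was 1.09 times the median library, and for miR-34c-5p the same quantity was 2.76. Per 1000000 tags of any kind that contrast was not seen, since miR-34a-5p ran from 8.98 in RA to 24.6 in VC, and miR-34c-5p from 229.9 in CHIR99021 to 574 in ddH2O. In CPM the DMSO library was lowest for miR-34a-5p, and its interval overlapped those of RA and BIO. The partner strand miR-34a-3p had 32.9 CPM in RA, 42.4 in BIO, 53.2 in CHIR99021, 50.3 in VC, 49.7 in DMSO and 50.3 in ddH2O, and all 6 intervals overlapped.

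The miR-449 arms were low. miR-449a-5p had 56.2 CPM in RA, 37.1 in BIO, 19.6 in CHIR99021, 55.0 in VC, 37.6 in DMSO and 56.6 in ddH2O. miR-449c-5p had 75.4 CPM in RA, 30.0 in BIO, 28.7 in CHIR99021, 66.7 in VC, 45.0 in DMSO and 102 in ddH2O. Both had their lowest value in CHIR99021 and their highest in ddH2O, but many intervals overlapped. For miR-449a-5p the interval in ddH2O overlapped those in RA, VC, DMSO and BIO. For miR-449c-5p the interval in ddH2O overlapped that in RA, and the one in CHIR99021 overlapped those in BIO and DMSO. RA and VC lay above DMSO for both, with overlapping intervals for miR-449a-5p. The remaining arms were at the limit of detection. miR-449a-3p had 7 tags over the 6 libraries, with none in RA or BIO and at most 3 in one library, miR-449b-3p had 1 tag each in CHIR99021 and VC, and miR-449b-5p and miR-449c-3p had none, which allows up to 4.11 CPM in RA and up to 1.39 CPM in DMSO.

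**Figure D1:**
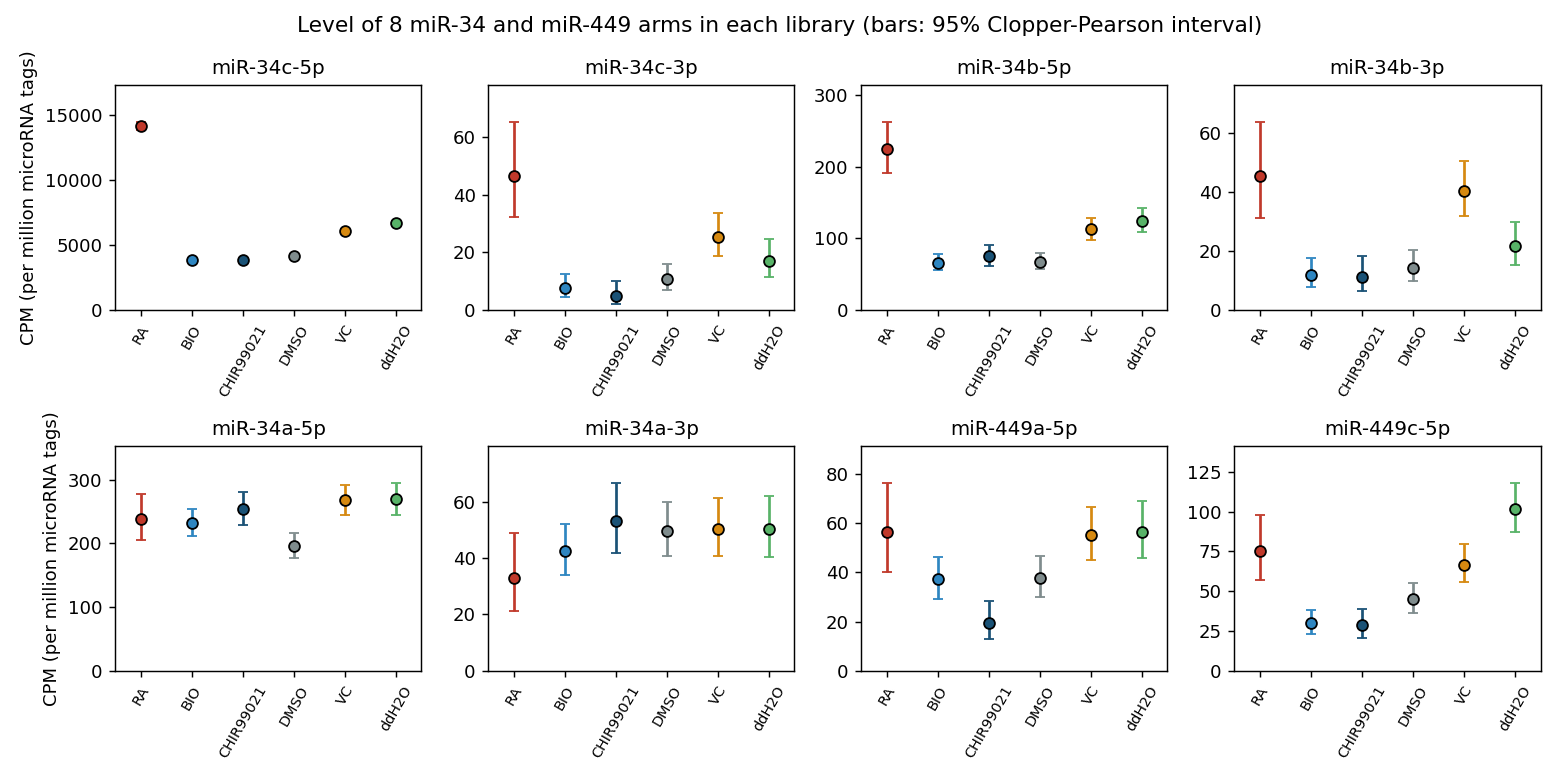
Level in counts per 1000000 microRNA tags (CPM, vertical axis, from 0) of the 8 arms that reached 10 CPM in a library, in each of the 6 libraries, with 95% Clopper-Pearson intervals for counting error as bars. The 4 arms of Mir34b and Mir34c are highest in RA, at 14120 CPM for miR-34c-5p, and miR-34a-5p lies between 196 and 269 CPM in all libraries.

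Per microRNA tag, RA was called higher than DMSO in all 4 arms of the Mir34b and Mir34c pair and in no arm of Mir34a or of the miR-449 hairpins. An arm was called different where the ratio was at least 2-fold, its interval did not include 1, and the higher library had at least 10 CPM. By this rule 4 of the 8 member arms that could be tested were called higher in RA and 0 lower. Over all 534 arms tested, 33.1% were called higher and 7.68% lower, so the 4 of 8 are to be read against a library in which many arms were called higher. The members' median log2 ratio was 1.20, against 0.46 over all arms. The 8 arms that passed the minimum level did so in part through the libraries in which they were high, and the median is a description.

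The 4 ratios were alike in size. miR-34c-5p was 3.42-fold higher (3.32 to 3.52), at the 83.3 percentile of the ratios of all arms tested. miR-34b-5p was 3.34-fold higher (2.66 to 4.21), miR-34b-3p 3.15-fold (1.87 to 5.31) and miR-34c-3p 4.37-fold (2.50 to 7.77). The 4 intervals overlap. Summed by place in the genome, the Mir34b and Mir34c arms had 14437 CPM in RA and 4224 CPM in DMSO, 3.42-fold higher (3.32 to 3.52). The summed Mir34a arms had 272 CPM in RA and 245 CPM in DMSO, a ratio of 1.11 (0.935 to 1.30) that was not called. The Mir449 arms summed to 132 CPM in RA and 84.0 CPM in DMSO, a ratio of 1.57 (1.21 to 2.02).

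No other arm was called. The ratio was 1.22 (1.02 to 1.46) for miR-34a-5p, 1.50 (1.00 to 2.20) for miR-449a-5p and 1.68 (1.18 to 2.36) for miR-449c-5p, and miR-34a-3p was 1.51-fold lower in RA, with an interval that includes 1 (0.962 to 2.46). The balance between the seed family's main arms differed between the libraries. miR-34a-5p made up 1.66% (1.43 to 1.93) of the miR-34a-5p and miR-34c-5p tags in RA, against 4.52% (4.11 to 4.97) in DMSO. In BIO the share was 5.68%, in CHIR99021 6.21%, in VC 4.21% and in ddH2O 3.86%.

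**Figure D2:**
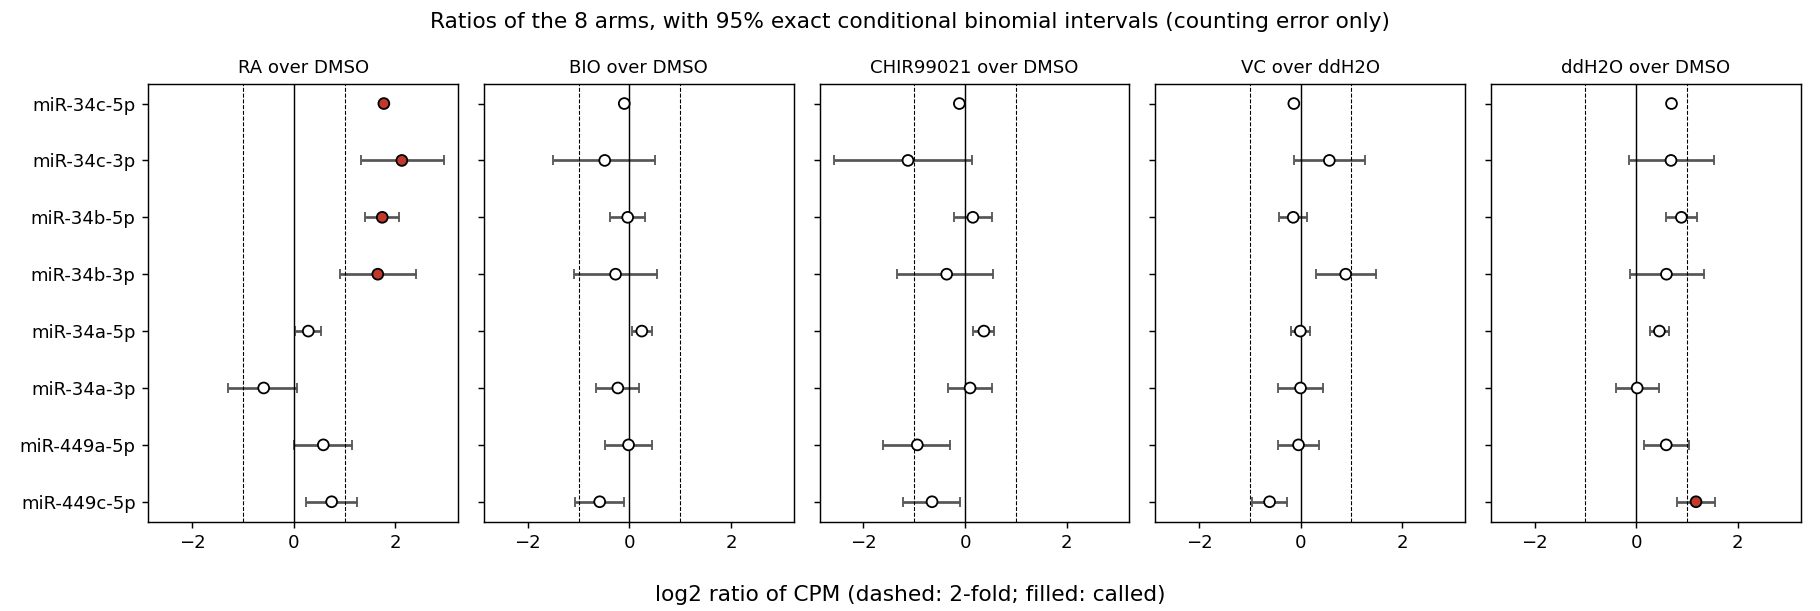
Log2 ratio of CPM (horizontal axis; the dashed lines mark 2-fold) of the 8 arms in 5 comparisons, with 95% exact conditional binomial intervals as bars and filled points for arms called different. The 4 Mir34b and Mir34c arms are filled in RA over DMSO, at 3.15- to 4.37-fold, and miR-449c-5p is filled in ddH2O over DMSO, at 2.26-fold.

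The size of the RA difference depended on the total used to scale the libraries. For miR-34c-5p the ratio of RA to DMSO was 3.42 per microRNA tag, 2.65 with median-of-ratios scaling and 2.39 with TMM scaling, and 1.13 per tag of any kind. On that last scale 0 of the 8 arms were called higher in RA and 3 lower. Relative to microRNA tags, the log2 ratio of every arm in RA was shifted by -0.51 with TMM, by -0.36 with median of ratios and by -1.60 with all tags. The share of all arms called per tag of any kind is not given here, so the members' counts have no background on that scale. Per 1000000 tags of any kind miR-34c-5p had 531 in RA, 363 in BIO, 229.9 in CHIR99021, 559 in VC, 472 in DMSO and 574 in ddH2O. On that scale RA lay below VC and ddH2O. The direction for miR-34a-5p turned with the scale, at 1.22 per microRNA tag and at 0.853 with TMM, 0.946 with median of ratios and 0.402 per tag of any kind. The miR-449 arms lay above DMSO on the first 3 scales and below it per tag of any kind, where the ratio was 0.493 for miR-449a-5p and 0.552 for miR-449c-5p. The 3.76% of microRNA tags in RA and the 11.4% in DMSO move with this result, and their part in it was not tested. The ratio between 2 members in one library does not depend on the total, so the lower share of miR-34a-5p within the pair in RA holds on every scale.

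**Figure D3:**
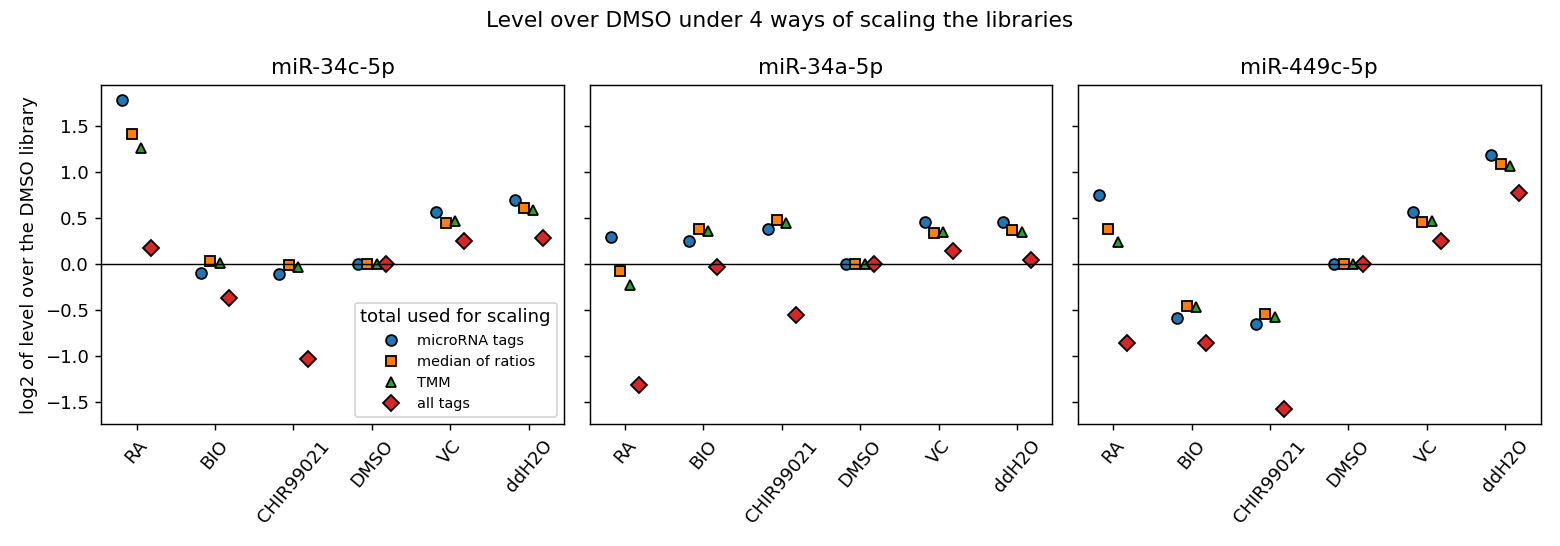
Log2 of the level over the DMSO library (vertical axis) of miR-34c-5p, miR-34a-5p and miR-449c-5p in each library, with 4 totals used for scaling. For miR-34c-5p the RA library lies 3.42-fold above DMSO per microRNA tag and 1.13-fold above it per tag of any kind.

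Set against the other vehicle, ddH2O, RA gave a smaller difference. 3 of the 8 arms were called higher and 0 lower, against 26.5% higher and 6.53% lower of all 536 arms tested. miR-34c-5p was 2.11-fold higher (2.06 to 2.17), miR-34c-3p 2.72-fold (1.61 to 4.60) and miR-34b-3p 2.08-fold (1.27 to 3.41). miR-34b-5p was 1.80-fold higher (1.46 to 2.22) and was not called. The median over members was 0.43 on the log2 scale, against 0.41 over all arms.

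**Figure D4:**
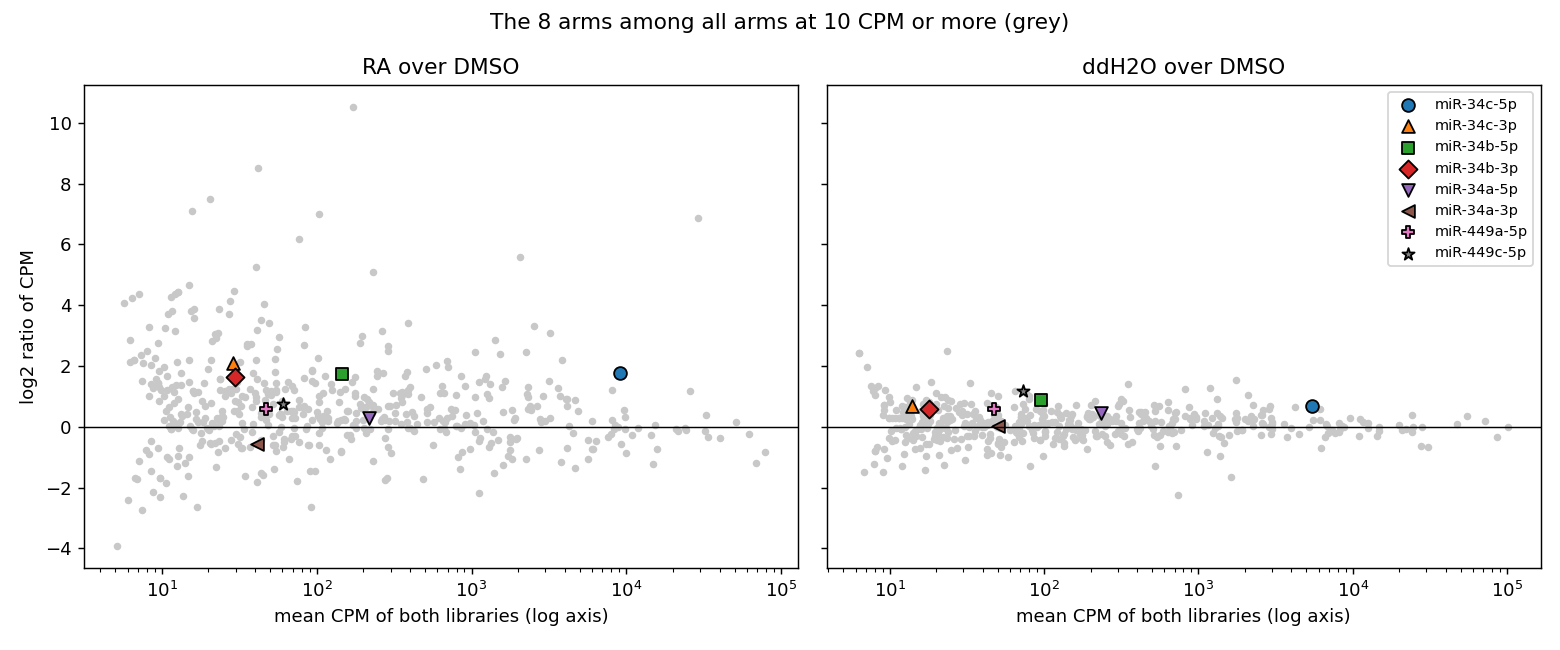
Log2 ratio of CPM (vertical axis) against the mean CPM of both libraries (horizontal log axis) for all arms with at least 10 CPM in the higher library (grey), with the 8 member arms marked, for RA over DMSO (left) and ddH2O over DMSO (right). In RA over DMSO, 33.1% of all arms were called higher and the Mir34b and Mir34c arms lie among them, at the 81.3 to 86.1 percentiles.

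The Gsk3 inhibitors gave no called member against DMSO. In BIO 0 of 8 arms were called, against 1.91% higher and 5.3% lower of all 472 arms. miR-34c-5p had 3852 CPM in BIO and 4132 CPM in DMSO, 1.07-fold lower in BIO (1.04 to 1.11), and with TMM or median-of-ratios scaling it lay 1.01- or 1.02-fold above DMSO. miR-34a-5p had a ratio of 1.18 (1.04 to 1.35), which became 0.978 per tag of any kind. miR-449c-5p was 1.50-fold lower (1.08 to 2.09) and miR-449a-5p had a ratio of 0.988 (0.715 to 1.37). The members' median was -0.16 and that of all arms -0.09.

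In CHIR99021 0 of 8 arms were called as well, against 6.25% higher and 12.3% lower of all 480 arms. miR-34c-5p had 3824 CPM in CHIR99021 and 4132 CPM in DMSO, 1.08-fold lower (1.04 to 1.12), and miR-34a-5p had a ratio of 1.29 (1.12 to 1.49). Per tag of any kind these ratios became 0.487 for miR-34c-5p and 0.681 for miR-34a-5p, and 5 of the 8 arms were called lower in place of 0. That total shifted the log2 ratio of every arm by -0.93, and the share of all arms called with it is not given here. Per microRNA tag the largest distances were below 1. miR-34c-3p was 2.18-fold lower with an interval that includes 1 (0.905 to 6.01), miR-449a-5p 1.92-fold lower (1.23 to 3.06) and miR-449c-5p 1.57-fold lower (1.08 to 2.32). The members' median was -0.23 and that of all arms -0.11. BIO and CHIR99021 were given at different doses, 1 and 3 µM, so their values stand side by side without a comparison.

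Vitamin C gave no called member against ddH2O, with 0 of 8 arms, against 5.98% higher and 1.44% lower of all 485 arms. miR-34c-5p had 6098 CPM in VC and 6688 CPM in ddH2O, 1.10-fold lower (1.07 to 1.13), and miR-34a-5p had a ratio of 0.996 (0.877 to 1.13). The 3p arms of the Mir34b and Mir34c pair lay above 1, with miR-34b-3p at 1.85 (1.24 to 2.81) and miR-34c-3p at 1.48 (0.919 to 2.42). miR-449c-5p was 1.53-fold lower (1.21 to 1.93). The members' median was -0.02 and that of all arms -0.01.

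The 2 vehicles also differed in the family. Of the 8 arms, 8 had a log2 ratio of ddH2O to DMSO above 0, against 287 of all 483 arms, though miR-34a-3p, at 1.01, lay below DMSO with each of the other 3 totals. The members' median was 0.63, against 0.11 over all arms. 1 arm was called higher, miR-449c-5p, at 2.26-fold (1.76 to 2.93), against 4.97% higher and 2.28% lower of all arms. miR-34c-5p was 1.62-fold higher in ddH2O (1.57 to 1.66), miR-34b-5p 1.85-fold (1.50 to 2.30), miR-34a-5p 1.37-fold (1.20 to 1.57) and miR-449a-5p 1.51-fold (1.11 to 2.05). Per microRNA tag, the distance of miR-34c-5p between these libraries with no active agent is larger than those of BIO, CHIR99021 and VC from their own vehicles. Per tag of any kind it is not, at 1.22 in ddH2O over DMSO beside 0.487 in CHIR99021 and 0.770 in BIO over DMSO. Set against ddH2O, BIO had 2 arms called lower, miR-34c-3p at 2.25-fold and miR-449c-5p at 3.39-fold (of all arms, 4.33% were called higher and 9.69% lower), and CHIR99021 had 3, miR-34c-3p at 3.50-fold, miR-449a-5p at 2.89-fold and miR-449c-5p at 3.55-fold (of all arms, 6.48% higher and 14% lower). VC against DMSO had 2 arms called higher, miR-34b-3p at 2.80-fold and miR-34c-3p at 2.38-fold (of all arms, 8.7% higher and 1.86% lower).

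In 5 of the 6 hairpins the 5p arm was the main product, and the 2 tags of Mir449b were 3p. It made up 99.6% to 99.9% of the tags of Mir34c over the libraries, 79.8% to 87.9% of Mir34a and 73.7% to 87.0% of Mir34b. For Mir34b the lowest share was in VC, at 73.7% (68.2 to 78.7), against 85.2% (80.2 to 89.3) in ddH2O, and these intervals do not overlap. Mir449a had a 5p share of 96.4% or more, and all Mir449c tags were 5p.

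Neighbours in a cluster were compared next. miR-34b-5p was 1.57% to 1.92% of the miR-34b-5p and miR-34c-5p tags in all 6 libraries, so the pair kept nearly the same ratio in RA as in the others. The 3p arms gave another balance, with miR-34b-3p at 49.3% to 69.6% of the pair. The 5p sequences differ at 2 of 23 bases. Of the copies of the abundant miR-34c-5p tag with a single base changed, of which 69 are possible, the median had 4 counts. The copies with only the first of the 2 differences had 1 count and those with only the second 569, the highest of any single change. The miR-34b-5p tag with both had 793. The product of the 2 single counts over the 47730 counts of the miR-34c-5p tag was 0.012. A copy changed only at its last base is also counted below as a tag with an extra 3′ base that does not match the hairpin. Over the 6 libraries 581 miR-34c-5p tags had a single T of that kind, and the miR-34b-5p tag ends in T. What made the second change so frequent was not tested. miR-449c-5p was 44.7% of the miR-449c-5p and miR-449a-5p tags in BIO and 64.3% in ddH2O.

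The ends of the tags differed among members. miR-34c-5p had 99.96% of its tags at 1 start and 85.3% at a length of 23 bases. miR-34a-5p had 51.3% at 22 bases and 36.6% at 23. Among the 292 other arms with at least 100 CPM in a library, the median share at the main start was 98.5%. The 3p arms of Mir34a and Mir34b were less uniform, with 69.5% and 64.8% at the main start. In miR-34a-3p 145 of 479 tags began earlier, and the seed is then another one. miR-34b-3p had 72 of 219 tags that began later.

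miR-449c-5p was longer than its RefSeq entry of 21 bases. Its most abundant tag, with capitals for the bases past the end of the entry, and that of miR-34a-3p are shown because they differ from the entries.
miR-449c-5p, most abundant tag: aggcagtgcattgctagctggCTGT
miR-34a-3p, most abundant tag: aatcagcaagtatactgccctA
Tags of 25 bases made up 35.4% of miR-449c-5p and tags of 26 bases 23.9%, and 62.7% had 24 bases or more. By library this share was 58.2% in RA, 79.4% in BIO, 58.5% in CHIR99021, 57.9% in VC, 57.7% in DMSO and 65.2% in ddH2O. The share was highest in BIO, and in every library more tags were long than short. Among the other 364 arms with at least 50 CPM the median share was 0.191%, the 90th percentile was 25.0%, and 15 arms were at or above miR-449c-5p. The search stops at 26 bases, so longer tags of the hairpin are not in these shares.

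**Figure D5:**
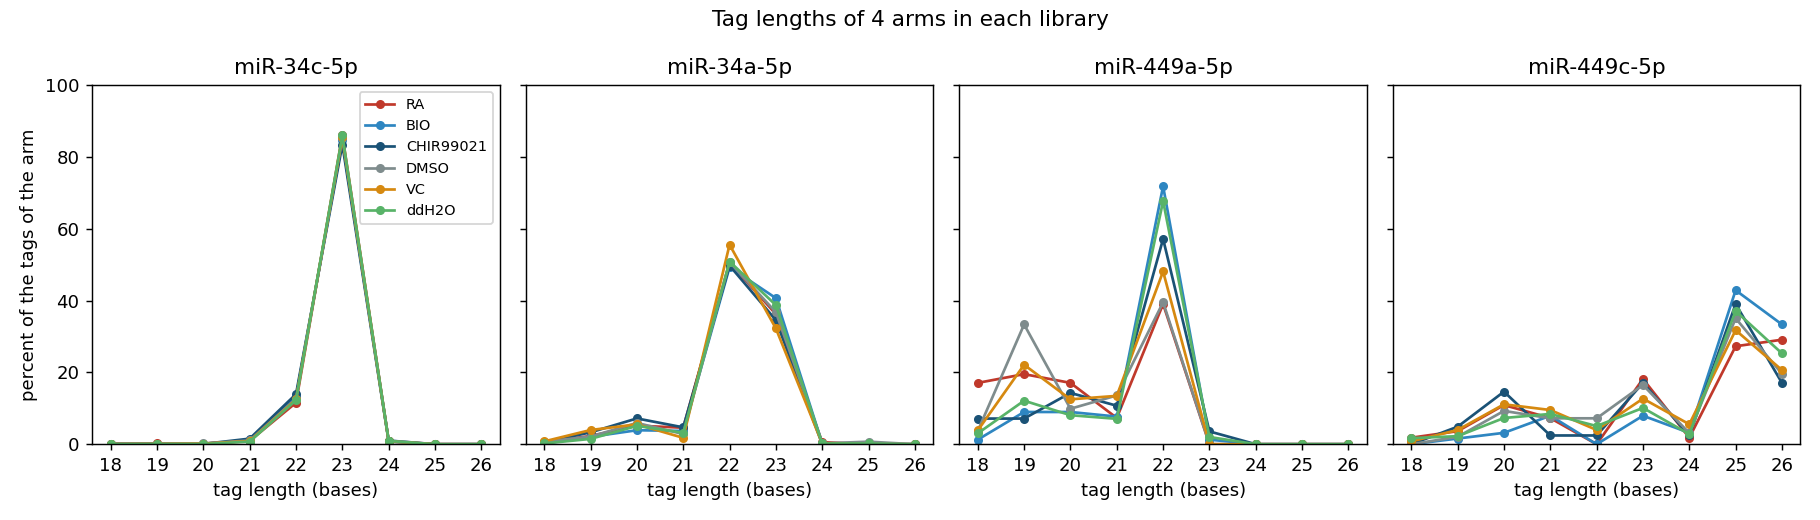
Percent of the tags of an arm (vertical axis, 0 to 100) by tag length in bases (horizontal axis) for 4 arms, with a line for each library. miR-34c-5p peaks at 23 bases, where 85.3% of its tags lie, and miR-449c-5p peaks at 25 bases with 35.4%.

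Tags with up to 3 extra bases at the 3′ end that do not match the hairpin were counted apart. They were 13.0% to 19.1% of miR-34a-5p tags, 3.09% to 3.99% of miR-34c-5p tags and 0.909% to 1.80% of miR-34b-5p tags over the libraries, and 10.6% to 15.5% of the tags of all arms. For miR-34a-5p a single A was found in 5.58% to 7.81% of tags and a single T in 2.64% to 6.51%. For miR-34c-5p these were 1.81% to 2.46% and 0.857% to 1.16%.

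Other microRNAs that have been tied to p53 were taken from a list of 13 hairpins, of which 12 were found, with 21 arms that had tags and 13 that reached 10 CPM in a library. The most abundant were miR-107-3p, at 9512 to 12159 CPM, miR-192-5p, at 3169 to 5941 CPM, miR-16-5p, at 2295 to 4999 CPM, and miR-143-3p, at 656 to 1047 CPM. In RA over DMSO 3 of 11 arms tested were called higher and 0 lower, against 33.1% higher and 7.68% lower of all 534 arms. The median log2 ratio was -0.07, against 0.46 over all arms. miR-16-5p had 4999 CPM in RA and 2468 CPM in DMSO (2.03-fold, 1.94 to 2.11), miR-15a-5p 527 CPM in RA and 247 CPM in DMSO (2.13-fold, 1.87 to 2.44) and miR-145a-5p 173 CPM in RA and 54.8 CPM in DMSO (3.16-fold, 2.44 to 4.09). miR-15a and miR-16 are known for lowering Bcl2 and cyclins, and miR-145 for lowering pluripotency factors in human cells. With other totals miR-15a-5p and miR-16-5p were not called, at 1.49 and 1.42 with TMM, 1.66 and 1.57 with median of ratios, and 0.703 and 0.667 per tag of any kind. miR-145a-5p was 2.21-fold higher with TMM, 2.45-fold with median of ratios and 1.04-fold per tag of any kind. Both other microRNA scalings gave 1 arm higher and 3 lower, and all tags gave 0 higher and 8 lower. The shares of all arms called with these totals are not given here. In RA over ddH2O 0 of 12 were called, against 26.5% higher and 6.53% lower of all 536 arms.

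In the other comparisons few of these arms were called. The arms tested were 12 in BIO over DMSO and 13 each in CHIR99021 over DMSO and VC over ddH2O. BIO had miR-143-5p lower than DMSO, at 30.0 CPM in BIO and 74.2 CPM in DMSO (2.47-fold, 1.84 to 3.37), and CHIR99021 had miR-194-2-5p lower, at 18.6 CPM in CHIR99021 and 40.6 CPM in DMSO (2.24-fold, 1.43 to 3.62), with 5 arms lower per tag of any kind. VC over ddH2O had 2 arms higher, miR-143-5p at 2.88-fold (2.27 to 3.68) and miR-15a-3p at 8.51-fold (3.40 to 27.4), the second from 46 counts in VC and 5 in ddH2O. miR-15a-3p had 17 counts in DMSO, and against ddH2O it was also called higher in BIO (3.66-fold) and CHIR99021 (4.65-fold). In VC over DMSO it was 3.09-fold and miR-143-5p 2.04-fold higher. Against ddH2O, miR-143-5p was 1.75-fold lower in BIO and not called, and miR-194-2-5p 2.51-fold lower in CHIR99021. miR-145a-5p was 2.15-fold higher in VC over DMSO and 2.08-fold lower in CHIR99021 over ddH2O. For the other vehicle the shares of all arms are given above. ddH2O over DMSO had none of 12. Of all arms, 1.91% were called higher and 5.3% lower in BIO over DMSO, and 6.25% and 12.3% in CHIR99021 over DMSO. In VC over ddH2O these shares were 5.98% and 1.44%, and in ddH2O over DMSO 4.97% and 2.28%. Per tag of any kind they are not given here. The median log2 ratios were -0.11 for BIO, 0.08 for CHIR99021, 0.02 for VC and 0.19 for ddH2O over DMSO. Over all arms they were -0.09, -0.11, -0.01 and 0.11 in the same order.

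The arms most like 2 members over the 6 libraries were taken from 292 arms that are no member and reach 100 CPM in a library, by the Euclidean distance of log2(CPM + 1) after each arm's mean was subtracted. Nearest to miR-34c-5p were miR-22-5p at 0.320, miR-431-5p at 0.432, miR-487b-3p at 0.432, miR-129-2-3p at 0.445 and miR-29c-3p at 0.543, against a median distance of 1.45. The member miR-34b-5p was nearer than any of them, at 0.268. The 3p arms of Mir34b and Mir34c were farther, miR-34b-3p at 0.927 with 48 of the other arms nearer and miR-34c-3p at 1.14 with 86 nearer. miR-34a-5p was at 1.57, farther than the median. Nearest to miR-449a-5p were miR-770-3p at 0.364, miR-92b-3p at 0.422, miR-127-3p at 0.615, the miR-9-5p of 3 hairpins at 0.622 and miR-758-5p at 0.629, and 33 arms were nearer than its cluster neighbour miR-449c-5p, at 0.841. These distances rest on 6 libraries that differ in depth and in their share of microRNA tags, and are a description.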

How the data were processed

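The authors deposited 1 file per library with a raw count for each distinct sequence, with the sequence and its length, as whole numbers, per the labels and the values. Per the labels' protocols, total RNA was isolated with TRIzol and libraries were made with an Illumina TruSeq RNA kit, and the submitters' processing notes name the mm9 build. The aligner and trimming are not given in the sources used here. The BIO sample is described as having lost its raw data. No gene is named in the files.

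Tags of 18 to 26 bases were matched exactly to 1174 GENCODE M21 hairpins with a Mir symbol, of 2202 annotated as miRNA, on GRCm38. An arm was set by its most abundant tag, with starts within 2 bases. Arms that had one top tag in common were joined, and a tag that fitted more than one arm was divided equally. Tags matching ribosomal, mitochondrial, small nuclear or small nucleolar RNA were left out. Levels are counts per 1000000 microRNA tags. Ratios have exact conditional binomial intervals and shares Clopper-Pearson intervals, at 95%, and log2 ratios use a pseudocount of 0.5 counts. All 12 member arms are named, whatever their values. The minimum of 10 CPM for a call applies to the higher library of each comparison, and arms with 3 or fewer counts in both libraries have no ratio. The procedure was tested on simulated counts that held counting error only, which cannot show how replicate libraries would differ.

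Other scalings were TMM (edgeR 4.0.16) and median of ratios (DESeq2 1.42.0), used for scaling factors only, with no test. The rest ran in Python 3.11.15 with scipy 1.17.1. With 1 library per group no test between groups was possible. The members and lists were chosen with earlier results of these data known.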

Additional observations from a re-analysis of the deposited data

Results flagged for a closer look

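3 signals lie outside the arms counted above, and each totals more than the 3 counts that a count of 0 allows. On the sense strand of Mir34a, 16 tags of 18 to 26 bases started outside the window of its 2 arms, 2 in RA, 5 in BIO, 0 in CHIR99021, 2 in VC, 4 in DMSO and 3 in ddH2O. Antisense to Mir34b, 14 tags were found, 5 in RA, 2 in BIO, 0 in CHIR99021, 4 in VC, 1 in DMSO and 2 in ddH2O. On the sense strand of Mir449c, 20 tags had 27 to 44 bases, 0 in RA, 4 in BIO, 2 in CHIR99021, 3 in VC, 3 in DMSO and 8 in ddH2O. All 3 were also found in both vehicles, and no difference between libraries was tested at these counts.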

How the results depend on the processing

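With all tags as the total, members called in RA over DMSO became 0 higher and 3 lower, in place of 4 and 0, the summed log2 ratio became 0.10 in place of 1.70, CHIR99021 over DMSO had 5 arms lower in place of 0 and a summed log2 ratio of -1.02 in place of -0.09, and ddH2O over DMSO had 0 arms higher in place of 1. TMM gave RA over DMSO 1 arm lower, and a minimum of 50 CPM gave 2 higher. With the other vehicle as the reference, BIO had 2 arms lower, CHIR99021 3 lower and VC 2 higher, in place of 0 each. With tags of 20 to 24 bases, BIO over DMSO had 1 arm lower and ddH2O over DMSO 0 higher, and with the most abundant tag alone ddH2O over DMSO had 2 higher. For the other p53-linked arms, scalings added after the data were seen gave RA over DMSO 1 higher and 3 lower with TMM and with median of ratios and 0 and 8 with all tags, in place of 3 and 0, and CHIR99021 over DMSO 5 lower with all tags, in place of 1. The cause was not tested, except that a stricter minimum leaves fewer arms. Apart from the other vehicle, the shares of all arms called in these settings are not given here. Of the other values that answer a comparison, 208 stayed within the limits set for them, and so did 364 for single arms, of which 43 more moved, 18 came past the threshold and 7 fell below it. No paired analysis was possible because each group has 1 library. Depth limits the low arms: 3 counts are 1.39 to 4.11 CPM, and miR-449b and the miR-449 3p arms lie at or under it.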
